A study of Mus musculus with 8 samples.

Results

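The family of miR-148a, miR-148b and miR-152 consists of microRNAs (miRNAs) that are encoded at separate loci and share the bases by which they recognise messenger RNAs. Of the 190 mature miRNAs in the deposited table, 3 were named for the family: mmu-miR-148a-3p, mmu-miR-148b-3p and mmu-miR-152-3p. The rows were taken by name, but the family was chosen on a measured value, the difference in miR-148a-3p between the genotypes in these same counts. Differences of the members between the genotypes are therefore given as a description. The fit across all miRNAs also covered the members, and its calls for them are stated once and carry no weight.

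The small RNA libraries came from mouse bone marrow LSK cells, the lineage-negative, Sca1-positive and cKit-positive fraction that holds haematopoietic stem and multipotent progenitor cells. The 4 db/db libraries were from B6.BKS(D)-Leprdb/J mice, whose leptin receptor gene carries the db mutation on both copies, giving a model of obesity with type 2 diabetes. The 4 db/m libraries were from heterozygous controls (B6.BKS(D)-Leprdb/+ db/m), and all 8 were labelled 6 months after diabetes, with no drug or other treatment named. The mutation is carried in the whole animal, so the LSK cells and the tissues around them shared the genotype. All 8 titles read db/m, so the genotype and strain labels were used for grouping. With that assignment, a separate edgeR likelihood ratio fit without a count filter recovered the authors' log2 fold changes for 190 of 190 miRNAs within 1e-06. The log2 fold changes below come from another edgeR fit, of the 144 miRNAs that passed a count filter. The labels leave it unsaid whether each library had its own animal. Totals ran from 13273 counts in db/m replicate 2 to 77834 in db/m replicate 3.

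A miRNA guides the Argonaute protein to messenger RNAs by pairing of its seed, bases 2 to 8, and lowers their stability and translation. The transcript of Dnmt1, the maintenance DNA methyltransferase, is a known target of the family. miR-148a also lowers the cholesterol exporter Abca1 in liver cells, and it is abundant in B lymphocytes, where it weakens the removal of self-reactive cells.

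The mature sequences from RefSeq (GRCm38.p6) are shown 5′ to 3′ with the seed in capitals, because the identical seed is what makes the members one family.
miR-148a-3p: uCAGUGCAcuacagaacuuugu
miR-148b-3p: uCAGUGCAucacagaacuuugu
miR-152-3p: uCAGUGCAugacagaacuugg
Counting from 1 at the 5′ end and taking miR-148a-3p as the reference, miR-148b-3p differed by C9U and U10C, 2 of 22 bases. miR-152-3p, which is 21 bases long, differed from miR-148a-3p by C9U, U10G and U20G, and from miR-148b-3p by C10G and U20G. All these differences lie outside the seed. Of the 190 names in the table, 163 had a RefSeq mature sequence, and 3 of these carried this seed, the members themselves. No source used here says how reads that fit more than 1 such miRNA were assigned, so the division of counts among the members is less certain than their sum.

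The precursors lie on different chromosomes. They are shown whole, with the measured 3p arm in capitals, to place that arm in its hairpin.
Mir148a: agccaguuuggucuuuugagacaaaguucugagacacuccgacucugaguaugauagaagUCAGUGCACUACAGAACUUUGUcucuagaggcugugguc
Mir148b: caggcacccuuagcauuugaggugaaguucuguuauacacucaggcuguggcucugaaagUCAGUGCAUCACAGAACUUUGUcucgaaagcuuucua
Mir152: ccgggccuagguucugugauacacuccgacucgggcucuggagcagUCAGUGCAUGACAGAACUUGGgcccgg
In GRCm38 with the GENCODE M21 annotation, Mir148a lies at chr6:51269812-51269910 on the minus strand, outside annotated genes, with Nfe2l3 the nearest protein-coding gene at 162.8 kb. Mir148b lies at chr15:103285125-103285221 on the plus strand, within the gene Copz1, where it overlaps no exon of the 4 annotated transcripts. Mir152 lies at chr11:96850393-96850465 on the plus strand, within the gene Copz2, where it overlaps no exon of the 5 annotated transcripts. Copz1 and Copz2 encode zeta subunits of the coatomer that coats Golgi vesicles. Each hairpin shares its chromosome with a Hox gene cluster, and the nearest Hox gene was Hoxc4 at 248.3 kb for Mir148b and Hoxb1 at 482.1 kb for Mir152.

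The seed pairs with the letters TGCACTG in a messenger RNA, the same for all members. Searched on the messenger strand of the longest annotated 3′ untranslated region of each protein-coding gene, TGCACTG occurred in 12.7% of 21022 genes. With a following A, which strengthens such sites, TGCACTGA occurred in 3.59%. Sites in known targets are shown with 10 bases on each side and the seed match in capitals, to show what the members can bind in common.
Dnmt1, chr9:20907482-20907508, minus strand: gagccccacgTGCACTGatgtttttaa
Abca1, chr4:53033873-53033899, minus strand: ggtcttccttTGCACTGtgtcaagtgt
The Dnmt1 match is followed by A, and the Abca1 match is not. These are letter matches in the reference and no messenger RNA was measured here, so they say nothing of repression in LSK cells. Abca1 held 2 matches and Bcl2l11, encoding the pro-apoptotic protein Bim, held 3. Cdkn1b, encoding the cell cycle inhibitor p27, held 0 in this window.

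miR-148a-3p was the most abundant member in 7 of 8 libraries and stood lower in every db/db library than in any db/m library. The db/m libraries, replicates 1 to 4, held 951, 302, 1011 and 908 counts of it, and the db/db libraries held 295, 202, 373 and 491. As CPM, counts per 1000000 of the TMM-scaled library total, the db/m values were 25197, 23076, 13594 and 17394, and the db/db values were 5140, 3925, 10077 and 10841. The lowest db/m library, replicate 3, was above the highest db/db library, replicate 4. The db/m mean was 19815 ± 5297 CPM and the db/db mean 7496 ± 3471 CPM (SD, 4 libraries each), for a log2 fold change of -1.40 (SE 0.33), or 2.64-fold lower in db/db. By count it ranked between 10 and 20 among the 190 miRNAs of each db/m library and between 23 and 35 in db/db. In bulk RNA, fewer cells that carry a miRNA and less of it per cell cannot be told apart.

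Within db/db the level of miR-148a-3p differed by the number in the library titles. The libraries of number 995477, replicates 1 and 2, averaged 4533 CPM and those of number 995475, replicates 3 and 4, averaged 10459 CPM. In db/m the 3 libraries of number 995478 averaged 20622 CPM and the single one of number 995479 had 17394 CPM. No source used here says what these numbers mark, and no number occurs in both genotypes. The difference between the db/db pairs was not tested.

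miR-148b-3p, less abundant than miR-148a-3p on average (3698 against 13656 CPM over the 8 libraries), had means within 1 SD of each other in the genotypes. Its counts were 163, 22, 357 and 172 in db/m libraries and 173, 278, 158 and 127 in db/db libraries. Scaled, the db/m values were 4319, 1681, 4800.2 and 3295 CPM and the db/db values 3015, 5402, 4269 and 2804 CPM. The groups overlapped, and the lowest value, from 22 counts, was in db/m replicate 2, the shallowest library with a total of 13273 counts. The db/m mean was 3524 ± 1379.5 CPM and the db/db mean 3872 ± 1208 CPM (SD, 4 libraries each), with a log2 fold change of 0.10 (SE 0.31). Without db/m replicate 2 the value was -0.098 and without db/db replicate 2 it was -0.12, so no direction can be given.

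miR-152-3p, which targets Dnmt1 as miR-148a does, was the least abundant member in every library. The db/m libraries held 52, 10, 38 and 41 counts and the db/db libraries 41, 27, 22 and 36. These correspond to 1378, 764, 511 and 785 CPM for db/m and to 714, 525, 594 and 795 CPM for db/db. All db/db values lay inside the db/m range, whose top was set by replicate 1. The means were 859.6 ± 367 CPM for db/m and 657 ± 121 CPM for db/db (SD, 4 libraries each), with a log2 fold change of -0.38 (SE 0.34). Without db/m replicate 1 that value was -0.032.

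**Figure D1:**
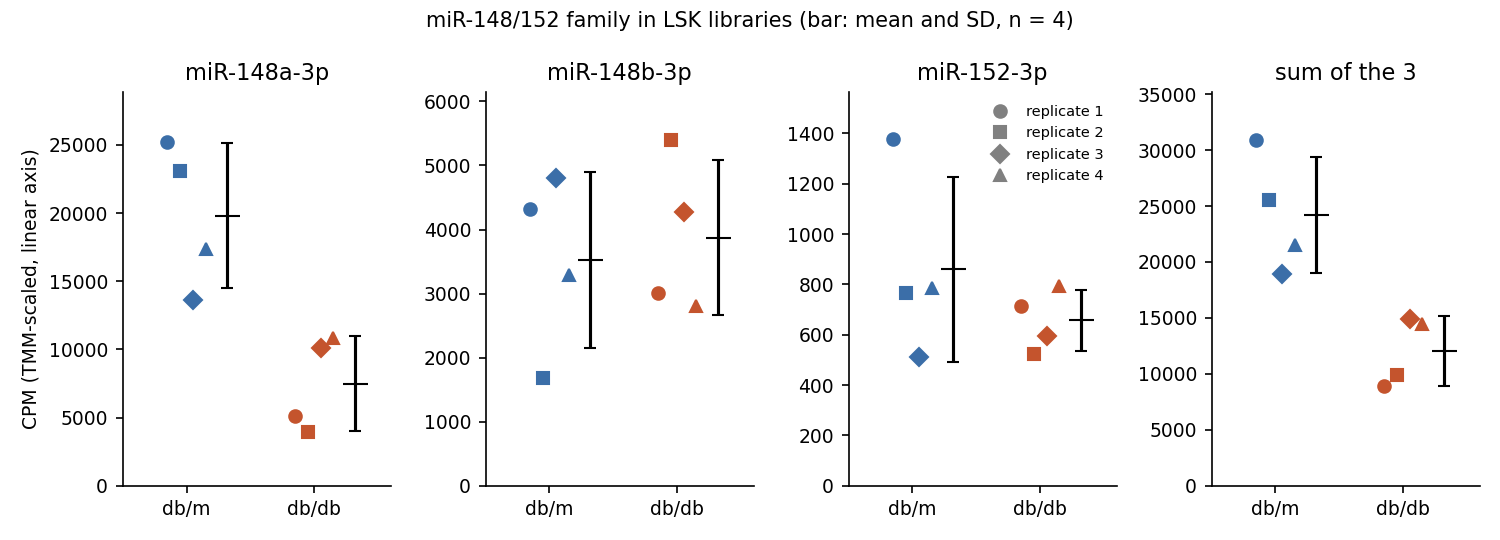
CPM of each member and of their sum (linear axes from 0, a separate scale in each panel) in the 4 db/m and 4 db/db libraries, with the mean and SD beside the points. The groups are apart for miR-148a-3p and for the sum, and overlap for miR-148b-3p and miR-152-3p.

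As a ratio to counting error, the spread between libraries of 1 genotype was highest for miR-148a-3p among the members. Its coefficient of variation came to 26.7% for db/m and 46.3% for db/db, where counting alone gives 4.33% and 5.49%. For miR-148b-3p the spread was 39.2% and 31.2% against 8.64% and 7.47% from counting. For miR-152-3p it was 42.7% in db/m against 19.9%, and in db/db 18.4% against 18.0%, so in db/db its libraries spread about as far as its few counts would.

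Of the 3 members, all tested, 1 passed an adjusted p of 0.05 by edgeR's quasi-likelihood test, miR-148a-3p, on the lower side, and it did not pass without db/m replicate 1, without db/m replicate 4, without db/db replicate 1 or with libraries of 1 title number summed. Among the 144 tested miRNAs, 4.86% passed in either direction and 2.08% lower in db/db. The groups did not overlap for 1 member, again miR-148a-3p and lower, against 17.4% of tested miRNAs in either direction and 9.03% lower in db/db. Since this contrast chose the family, nothing is read from these counts. The authors' deposited table gave log2 fold changes of -1.49 for miR-148a-3p, 0.040 for miR-148b-3p and -0.46 for miR-152-3p. The median over all tested miRNAs was -0.03 here.

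**Figure D2:**
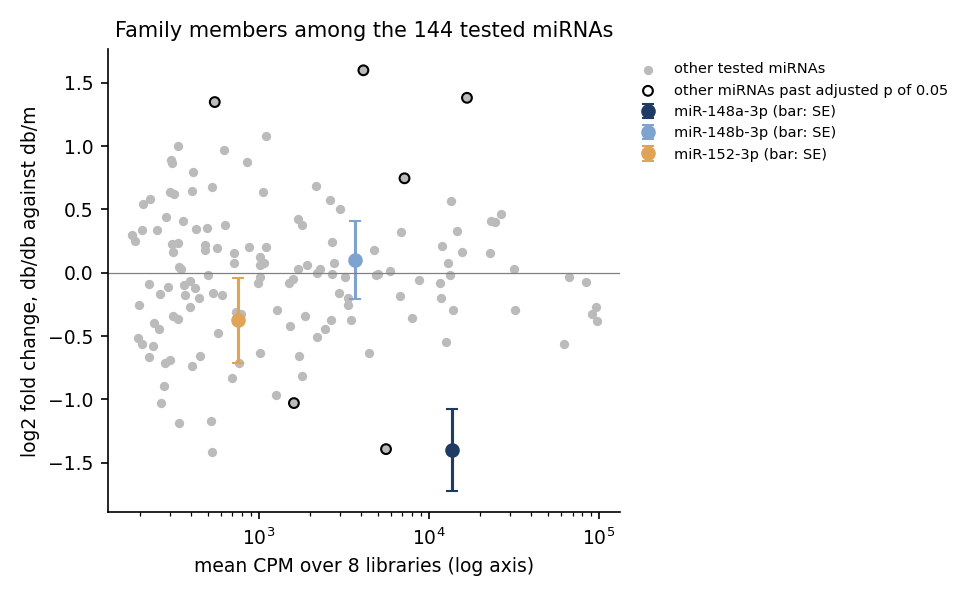
Log2 fold change of db/db against db/m by mean CPM over the 8 libraries (log axis) for the 144 tested miRNAs, with the family in colour (bars, SE) and other miRNAs past an adjusted p of 0.05 ringed. miR-148a-3p lies at -1.40, the difference that chose the family, while miR-148b-3p (0.10) and miR-152-3p (-0.38) lie within the cloud of tested miRNAs.

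Because the members share a seed, their counts were also summed. The sum came to 30894, 25521, 18905 and 21474 CPM for db/m replicates 1 to 4 and to 8869, 9852, 14939.7 and 14439 CPM for the db/db libraries. Every db/db library was below every db/m library. The sum contains the value that chose the family, so nothing is read from this separation. Groups lay apart on the lower side for 9.03% of the 144 tested miRNAs. The db/m mean was 24198.5 ± 5229 CPM and the db/db mean 12025 ± 3109 CPM (SD, 4 libraries each), for a log2 fold change of -0.99 (SE 0.23), or 1.98-fold lower in db/db. As a share of all miRNA counts the family held 2.31% ± 0.477 of db/m libraries and 1.23% ± 0.303 of db/db libraries.

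The lower sum came from miR-148a-3p. Between the genotype means, db/db minus db/m, it differed by -12319 CPM, miR-148b-3p by 349 CPM, miR-152-3p by -202 CPM and the sum by -12173 CPM.

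The make-up of the family varied among the libraries of each genotype. miR-148a-3p held 81.6%, 90.4%, 71.9% and 81.0% of the family's counts in the db/m libraries. In the db/db libraries it held 58.0%, 39.8%, 67.5% and 75.1%. The groups overlapped, since db/db replicate 4 stood above db/m replicate 3. In db/db replicate 2 miR-148b-3p was the leading member, with 54.8% of 507 family counts (95% Clopper-Pearson interval 50.4% to 59.2%), against 39.8% for miR-148a-3p (35.6% to 44.3%). miR-152-3p held between 2.70% and 4.46% in db/m and between 3.98% and 8.06% in db/db. These intervals cover counting error only.

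**Figure D3:**
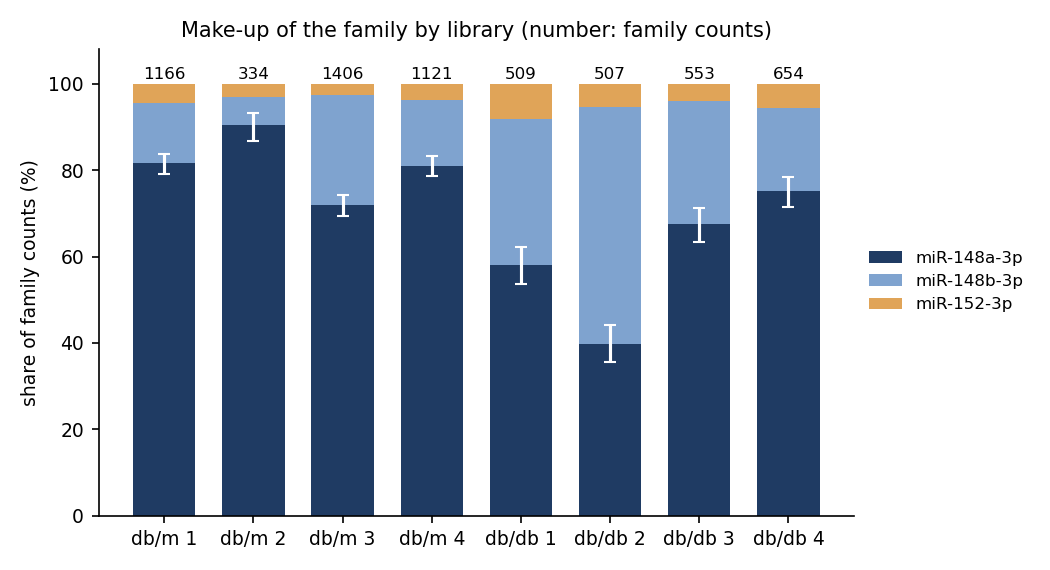
Share of the family's counts held by each member in each library (stacked bars from 0, in percent), with the 95% Clopper-Pearson interval of the miR-148a-3p share in white and the family's counts above each bar. miR-148a-3p holds most counts in 7 of 8 libraries, and in db/db replicate 2 miR-148b-3p holds 54.8%.

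Ratios between members within a library need no scaling between libraries. The counts of miR-148a-3p were 18.3, 30.2, 26.6 and 22.1 times those of miR-152-3p in the db/m libraries. In the db/db libraries they were 7.20, 7.48, 17.0 and 13.6 times as high. The groups did not overlap for this ratio, which on the log2 scale averaged 4.58 ± 0.316 over db/m libraries and 3.40 ± 0.621 over db/db libraries (SD), a difference of -1.18.

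Against miR-148b-3p the separation was incomplete. The ratio ran 5.83, 13.7, 2.83 and 5.28 over the db/m libraries and 1.71, 0.727, 2.36 and 3.87 over the db/db libraries, so that db/db replicate 4 stood above db/m replicate 3. On the log2 scale the mean was 2.56 ± 0.937 for db/m and 0.87 ± 1.01 for db/db (SD, 4 libraries each), a difference of -1.68. Both ratios contain the value that chose the family and carry no test. The log2 ratio of miR-148b-3p to miR-152-3p, which does not contain it, averaged 2.02 ± 0.892 for db/m and 2.53 ± 0.708 for db/db and overlapped. A ratio within a library shows unequal change and does not show that either member stayed the same.

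**Figure D4:**
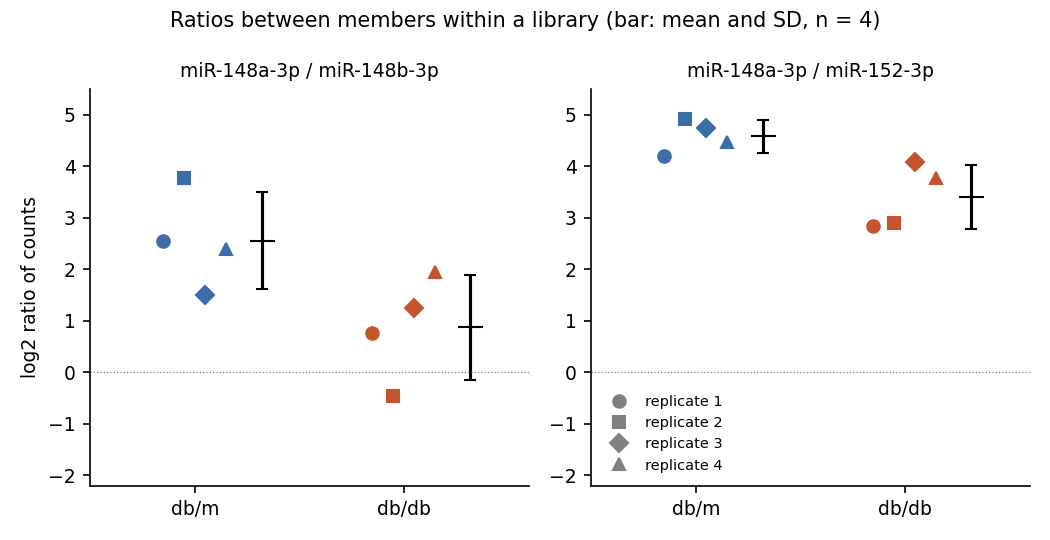
Log2 ratio of miR-148a-3p counts to those of miR-148b-3p (left) and miR-152-3p (right) in each library, with the mean and SD (n = 4) beside the points. The groups are apart on the right and overlap on the left, where db/db replicate 2 falls below 0.

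The miRNAs with the most similar course over the 8 libraries were found by the root mean square difference of log2 CPM after each miRNA's own mean was removed. For miR-148a-3p the nearest 5 of 143 were miR-128-3p at 0.53, miR-423-5p at 0.58, miR-1981-5p at 0.59, miR-1198-5p at 0.59 and miR-484 at 0.61, where the median over all was 0.97. A miRNA with a flat course would lie at 0.90, the root mean square spread of miR-148a-3p itself. All 5 neighbours had log2 fold changes below 0, from -1.39 for miR-423-5p to -0.69 for miR-484, and the groups overlapped only for miR-484. Among the 144 tested miRNAs the groups lay apart on the lower side for 9.03%. Of the other members, miR-152-3p came at place 14 (0.73) and miR-148b-3p at place 113 (1.18). As the course of miR-148a-3p follows the genotypes, this likeness includes that difference. The direction and separation of the 5 neighbours follow largely from how they were picked, so nothing is read from them.

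For miR-148b-3p the nearest were miR-19a-3p (0.26), let-7i-5p (0.26), let-7j (0.28), miR-669a-3p (0.28) and miR-20a-5p (0.30), and for miR-152-3p they were miR-125a-5p (0.30), let-7e-5p (0.31), let-7f-5p (0.31), miR-30c-5p (0.32) and miR-501-3p (0.32). For all 10 the groups overlapped, where 17.4% of the 144 tested miRNAs had groups that did not overlap in either direction. The neighbours were picked by likeness to members whose groups overlap, so nothing is read from this count. The medians over all were 0.62 for miR-148b-3p and 0.60 for miR-152-3p. No miRNA was among the nearest 5 for more than 1 member, and miR-148a-3p came at place 138 for miR-148b-3p and 107 for miR-152-3p.

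**Figure D5:**
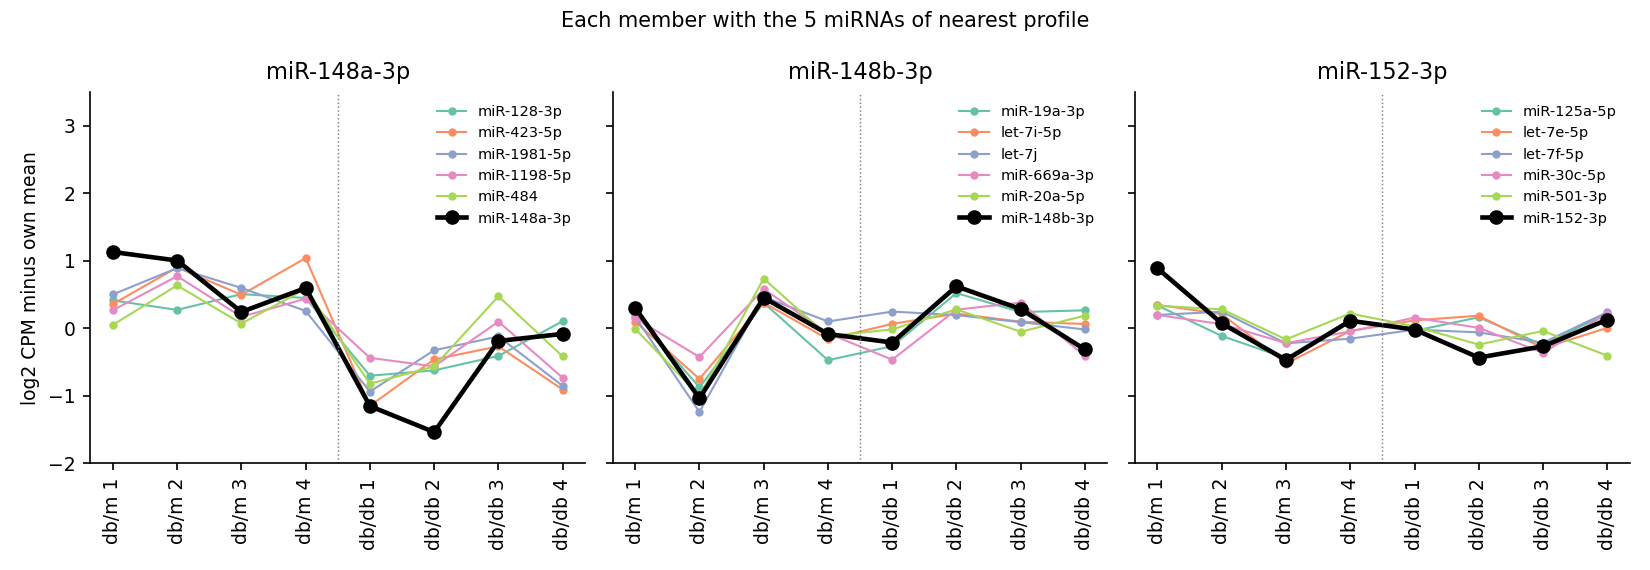
Log2 CPM minus each miRNA's own mean over the 8 libraries, for each member (black) and the 5 miRNAs of smallest root mean square difference (colours). miR-148a-3p and its neighbours lie higher in db/m, with overlapping groups for miR-484, while miR-148b-3p dips in db/m replicate 2 and miR-152-3p peaks in db/m replicate 1.

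The miR-130/301 family carries the same run of 7 bases moved by 1 position, at bases 1 to 7, so that its sites overlap those of the members. The shared bases are in capitals.
miR-130a-3p: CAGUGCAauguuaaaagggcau
miR-130b-3p: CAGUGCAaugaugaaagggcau
miR-301a-3p: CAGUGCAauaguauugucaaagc
Its seed pairs with TTGCACT, found in 9.98% of the 3′ untranslated regions, and TTGCACTG, which holds both matches, was found in 3.55%. Of 5 listed members 3 had a row and 2 were tested. By edgeR 0 passed, with 0 at unadjusted p under 0.05 and 0 by DESeq2. Of all 144 tested miRNAs 22.2% had an unadjusted p under 0.05 and 11.1% passed by DESeq2. miR-130a-3p averaged 450.1 ± 158 CPM over db/m and 517 ± 63.7 CPM over db/db libraries (SD), with a log2 fold change of 0.22 (SE 0.34), and miR-130b-3p had 0.16 (SE 0.40).

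Other miRNAs reported to lower DNA methyltransferases include the miR-29 family, which acts on Dnmt3a and Dnmt3b, and miR-126, which is abundant in haematopoietic stem cells and endothelium. Of the 10 listed, 7 were tested and 1 passed by edgeR, miR-126a-3p, on the higher side (log2 fold change 1.38, SE 0.25, adjusted p = 0.00532). On that side 2.78% of the 144 tested miRNAs passed. miR-126a-3p still passed when any 1 of the 8 libraries was left out. The list's median was 0.57, against -0.03 over all tested miRNAs. The list was set with earlier results of these data known, so its median and number of calls are a description. miR-29a-3p (0.57, SE 0.19, edgeR adjusted p = 0.107), miR-29c-3p (0.87, SE 0.29, adjusted p = 0.107) and miR-101a-3p (1.08, SE 0.35, adjusted p = 0.0916) did not pass by edgeR's quasi-likelihood test. The sister miRNAs miR-29b-3p (0.12, SE 0.32, adjusted p = 0.925 by edgeR) and miR-101b-3p (0.34, SE 0.41, adjusted p = 0.783) had smaller values. By DESeq2 4 of the 7 passed: miR-126a-3p, miR-29a-3p, miR-29c-3p and miR-101a-3p. Of all 144 tested miRNAs 11.1% passed by DESeq2. miR-342-3p, which targets Dnmt1, had -0.38 (SE 0.38).

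Of 12 miRNAs of cholesterol transport, a process in which miR-148a acts in liver, 8 were tested and 0 passed by edgeR, with 2 at unadjusted p under 0.05 and 2 by DESeq2. These were miR-128-3p, with a log2 fold change of -0.82 (SE 0.24, edgeR adjusted p = 0.0637), and miR-26a-5p, with 0.46 (SE 0.16, adjusted p = 0.111). The most abundant others were miR-223-3p (-0.06, SE 0.23) and miR-27b-3p (-0.16, SE 0.22), and the list's median was -0.02. Of the 3 miRNAs known to lower Cdkn1b, miR-221-3p, miR-222-3p and miR-24-3p, 0 passed by edgeR, with 0 at unadjusted p under 0.05 and 0 by DESeq2. Their log2 fold changes were 0.01, -0.08 and -0.02. Of all 144 tested miRNAs 4.86% passed by edgeR, 22.2% had an unadjusted p under 0.05 and 11.1% passed by DESeq2.

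Each of the family's hairpins shares its chromosome with a Hox cluster. Of 5 listed miRNAs of the Hox clusters 2 were tested and 1 passed by edgeR, where 4.86% of all 144 tested miRNAs did. miR-196b-5p, from the Hoxa cluster on the chromosome of Mir148a, rose in db/db by 0.75 on the log2 scale (SE 0.19, adjusted p = 0.0436), while miR-148a-3p was lower. That call was lost without db/m replicate 1, 2 or 4 or db/db replicate 1 or 2, where the adjusted p by edgeR ran from 0.0634 to 0.167. miR-10a-5p, from the Hoxb cluster on the chromosome of Mir152, had 0.33 (SE 0.21, edgeR adjusted p = 0.388).

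The libraries carried the miRNAs known from stem and progenitor cells, with rows for 7 of 7. Their summed level ran from 57145 to 86905 CPM in db/m and from 82182 to 115979 CPM in db/db. That sum includes both arms of miR-126a, and miR-126 is abundant in endothelium as well. By edgeR 3 of the 7 passed, on the higher side, where 4 of all 144 did. They were both arms of the miR-126a hairpin and miR-196b-5p, whose call was lost without any 1 of 5 libraries. The marker list was set with earlier results of these data known, so nothing is read from its share of calls. Markers of other cells were also counted. Lymphoid markers, 2 of 3 with a row, ran from 7570 to 13372 CPM for db/m and from 7051 to 9582 CPM for db/db, where miR-150-5p had -0.63 on the log2 scale (SE 0.27, edgeR adjusted p = 0.183) and miR-155-5p had 0.18 (SE 0.19). The markers listed as myeloid, 3 of 4 with a row, were miR-223-3p and both arms of miR-142a. Their sum ran from 20478 to 30226 CPM for db/m and from 21049.5 to 28768 CPM for db/db. In db/m, miR-142a-3p and miR-142a-5p averaged 11018 and 3631 CPM and miR-223-3p 8939 CPM, so the sum is not a measure of miR-223-3p alone. The 1 of 5 erythroid markers, miR-486a-5p, ran from 2252 to 3388 CPM for db/m and from 1108 to 5754 CPM for db/db. Markers of stroma, endothelium and fat, 2 of 8, ran from 76.4 to 498 and from 175 to 1236 CPM, and those of other tissues, 6 of 15, from 1973 to 3821 and from 2954 to 4239 CPM. The part of such cells in the level of miR-148a-3p was not tested.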

How the data were processed

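The authors deposited raw counts per mature miRNA for each of 8 QIAseq libraries, per the file headers. Beside these the authors gave log2 CPM per library, and a log2 fold change, p-value, false discovery rate and signed fold change, a score, for diabetic against control libraries. Per the submitters' processing notes, edgeR 3.41.9 and mm10 are listed, with no role given. No source used here names the aligner or says whether molecular identifiers were counted.

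The genotypes were compared on counts by edgeR 4.0.16 (R 4.3.3): filterByExpr (minimum count 10, minimum total 15) left 144 of 190 miRNAs, followed by TMM, estimateDisp and robust glmQLFit with glmQLFTest, all 8 libraries in 1 fit, and Benjamini-Hochberg adjustment over the 144. The SE is the log2 fold change over the square root of F. CPM are counts over TMM-scaled library sizes, as mean ± SD. For the summed family the members' rows were replaced by their sum. Profiles used log2 CPM with a prior count of 2. Totals ran from 13273 to 77834 counts, where 3 counts are worth 229 to 40.3 CPM. Alternatives were other scalings, no filter, the likelihood ratio test, DESeq2 1.42.0, summing by title number and leaving out each library. p-values measure only the spread between these libraries.

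Members and lists were chosen with earlier results of these data known. Named miRNAs are the members, the 5 nearest profiles of each, and from each list those past the threshold and up to 4 abundant ones. miR-29b-3p, miR-29c-3p and miR-101b-3p were named, and miR-126a-3p and miR-196b-5p were tested without single libraries, after their values were seen. miR-148b-3p and its alternatives were added when its row was found in the table.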

Additional observations from a re-analysis of the deposited data

How the results depend on the processing

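Over 15 alternatives miR-148a-3p had log2 fold changes between -1.64 and -1.13, miR-152-3p between -0.63 and -0.032 and the summed family between -1.19 and -0.85, each moving by less than 1 SD between replicates. miR-148b-3p ran from -0.12 to 0.24 and was below 0 without db/m replicate 2 (-0.098) and without db/db replicate 2 (-0.12). Over 10 alternatives the log2 ratio of miR-148a-3p to miR-152-3p differed between genotypes by -1.40 to -0.99 and that to miR-148b-3p by -2.04 to -1.24. The count of miRNAs past the threshold, 7, was 12 by the likelihood ratio test, 16 by DESeq2 and 21 with libraries of 1 title number summed, and ran from 3 to 16 when single libraries were left out. The lowest count, 3, came without db/m replicate 1, without db/m replicate 4 and without db/db replicate 1, and the highest without db/m replicate 3. The cause was not tested. No paired analysis was possible because nothing in the labels pairs libraries across genotypes. miR-152-3p rests on 10 to 52 counts per library, against 202 to 1011 for miR-148a-3p, with an SE of 0.34 against 0.33.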
